A study of Sus scrofa with 80 samples.

Results

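The complement, coagulation and serpin genes of the Göttingen minipig were described as 1 module across 9 tissues and 5 ages. A gene was a member when the symbol in the array's probe annotation belonged to one of these families: C1Q chains, C1R and C1S, complement components C2 to C9, C4-binding protein, the complement factors, MASP1 and MASP2, the numbered coagulation factors, fibrinogen chains FGB and FGG, protein C, protein S or the serpins. The choice used names only and no measured value. It found 56 members among 23722 genes. A further 17 genes of the same families are listed on the array by a pig RefSeq accession in place of a symbol. They were named through the pig RefSeq gene table (assembly Sscrofa11.1), are called accession-listed here and are not counted as members. Of these, 5 (C3, C5, C7, F12 and SERPINB9) measure a member gene a second time with other probes. No probes were assigned to PROS1 (protein S), C1R or the C4 genes, which were not analysed here.

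Complement is a cascade of plasma proteases and binding proteins. The classical pathway starts with C1q, the lectin pathway with the MASP proteases and the alternative pathway with factors B and D, all of them lead to cleavage of C3 and C5, and components C6 to C9 then form a pore in the target membrane. Coagulation runs from tissue factor (F3) and the contact factor F12 through factors X and V to thrombin (F2), which cleaves fibrinogen, and factor XIII crosslinks the fibrin. Serpins trap serine proteases and restrain both cascades, among them antithrombin (SERPINC1), heparin cofactor II (SERPIND1), C1 inhibitor (SERPING1) and alpha-2-antiplasmin (SERPINF2). Hepatocytes secrete most of these plasma proteins, while C1q and properdin (CFP) are known as products of macrophages and other myeloid cells.

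Total RNA was hybridized to 80 one-color custom microarrays, which gave 72 tissue samples. Liver, kidney, spleen, bone marrow, cerebellum, hypothalamus and cerebral cortex were each sampled from 1 female and 1 male per age. The ages were 1 week, 4 weeks, 2 months and 4 months, and each of these 7 tissues was also sampled from 1 male of 2 years. Testis covered all 5 ages and ovary the 4 younger ones, with 1 animal each. All animals were untreated and came from 1 breeder, except that the 2-year male was kept at another site on other food after its first months and was killed with another pentobarbital product. The labels do not say which tissues came from the same animal, and each age and sex is 1 sample, so that sex and individual cannot be told apart and p-values cover only the spread between these samples. The 16 arrays from 2 years lay on 2 slides of their own, so that this age, the housing and the slide cannot be told apart. Levels are log2 values of the background-corrected and quantile-normalized probe intensity, averaged over the probes of a gene, and cannot be compared between genes. An array's detection limit, the 95th percentile of its negative control spots, lay between 2.96 and 4.21, and in the text a sample is called above background where the scanner software rated at least 1 probe of the gene as well above background.

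The tissue labels were checked against marker genes. Of 7 hepatocyte markers all 7 were highest in liver, all 6 measured kidney markers in kidney, all 6 measured neutrophil markers in bone marrow and 5 of 8 B and T cell markers in spleen. All 3 measured glial markers were highest in hypothalamus, and of 4 measured neuron markers 1, NEFL, was called highest in hypothalamus and the others in no tissue. Among the members, 17 were above background in all 56 samples taken up to 4 months in the 7 tissues with both sexes, 4 (C8A, SERPINA9, SERPINA12 and SERPINB11) were above background in none of them, and 2 of these, C8A and SERPINA9, in none of the 72. The probes of a member did not always run together. Of 54 members with at least 2 probes, 14 had a pair of probes that correlated below r = 0.5 over the samples, among them SERPINE2, SERPINB9, SERPINA5 and SERPINA1.

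Most members were liver genes. A gene was called highest in a tissue when limma, fitted over the 56 samples with age and sex as a block, placed it above each of the other 6 tissues at an adjusted p below 0.05. By this rule 31 of the 56 members (55.4%) were highest in liver, against 9.18% of all genes. Spleen was highest for 5 members against 5.66% of all genes, bone marrow for 4 against 8.02%, and kidney, cerebellum, hypothalamus and cerebral cortex for 1 each against 6.21%, 6.23%, 2.32% and 3.41%. For 12 members no tissue was called. Liver took all 3 central components, all 5 terminal components, all 4 complement regulators, all 5 anticoagulants and 7 of 11 coagulation factors, but 0 of the 10 clade B serpins, which are mostly intracellular.

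**Figure D1:**
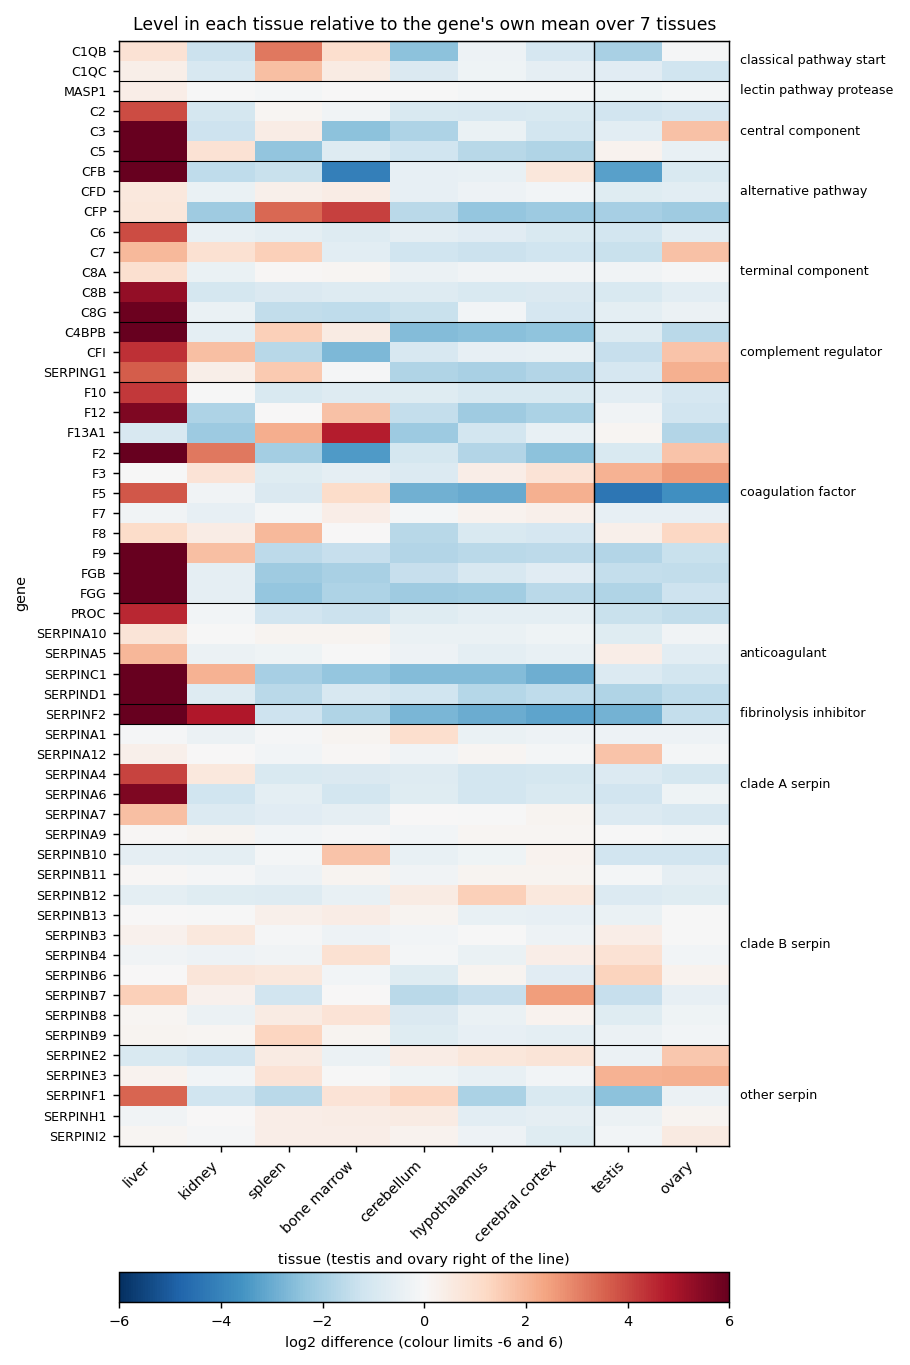
Mean log2 level of 55 of the 56 members (rows, grouped by role) in each of 9 tissues (columns), drawn as the difference from the gene's own mean over the 7 tissues sampled in both sexes; 8 samples per tissue, 4 in testis and 4 in ovary, 2-year samples left out. The liver column is red for most complement, coagulation and anticoagulant genes, the bone marrow column for CFP and F13A1, and the kidney column for SERPINF2, F2 and SERPINC1.

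The distance between liver and the next tissue spanned a wide range. Among the 31 members 19 were at least 10-fold higher in liver than in the second tissue. FGG, the gamma chain of fibrinogen, had a lowest, median and highest level of 14.72, 15.29 and 15.55 in the 8 liver samples and 3.37, 4.10 and 4.93 in kidney, where 2 of 8 arrays were above background, a fitted 2229-fold difference (log2 11.12, SE 0.17, limma adjusted p = 6.16e-44). SERPIND1, the thrombin inhibitor of the heparin system, was at 12.26, 12.71 and 12.90 in liver and 3.52, 3.98 and 4.62 in kidney, where 1 of 8 arrays was above background, a fitted 387-fold difference (log2 8.60, SE 0.12, limma adjusted p = 1.78e-45). Antithrombin, SERPINC1, reached 15.88, 15.93 and 16.00 in liver and 6.27, 8.03 and 9.47 in kidney (log2 8.20, SE 0.26, limma adjusted p = 4.03e-31), and 7 of its 8 liver arrays were saturated, so that its liver level is a lower limit. With kidney levels near background and saturated liver spots the order of these margins is not set. None of these 3 genes overlapped between liver and any other tissue. The beta chain of fibrinogen, FGB, next to FGG in the pig gene order but for 1 gene, had a mean of 11.76 ± 0.28 (SD, n = 8) in liver and 3.66 ± 0.76 in kidney.

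The central and terminal complement genes shared this pattern at different depths. C3, where the 3 pathways meet, was at 13.88 ± 0.14 (SD, n = 8) in liver and 7.71 ± 0.39 in spleen, a 72-fold difference (limma adjusted p = 6.16e-33). Its accession-listed probes gave 14.65 ± 0.23 and 8.89 ± 0.51 in the same tissues. Factor B, CFB, which forms the C3 convertase of the alternative pathway, was at 15.68 ± 0.10 in liver with 2 saturated arrays, 91.5-fold above its second tissue, the cerebral cortex at 9.16 ± 0.57 (limma adjusted p = 4.76e-27). C6 and C8B, both parts of the pore, were above background in liver but in no sample of the other 6 tissues up to 4 months, and liver was at least 11.7-fold higher for C6 and at least 47.9-fold higher for C8B than each of these tissues. C7, the neighbour of C6 but for 1 gene, did not share this distance, with 8.23 ± 0.97 in liver against 7.72 ± 0.43 in spleen, and its accession-listed probes were highest in no tissue. The call on C7 was lost without the 2-month samples, at a margin of 0.36 log2 units, and without the 4-week samples at 0.50. C9, the last unit of the pore and accession-listed, was 7.64-fold higher in liver than in bone marrow (6.06 ± 0.96 against 3.13 ± 0.34, limma adjusted p = 1.22e-17).

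The regulators SERPING1 and CFI were less restricted to liver than C3 or CFB. C4BPB, another regulator, was 26.9-fold higher in liver than in spleen. C1 inhibitor, SERPING1, was at 15.81 ± 0.15 (SD, n = 8) in liver, with 3 saturated arrays, and at 13.75 ± 0.63 in spleen, a 4.18-fold difference (limma adjusted p = 1.9e-13). Factor I, CFI, the protease that inactivates C3b, was 5.94-fold higher in liver than in kidney, at 13.85 ± 0.30 against 11.28 ± 0.59 (limma adjusted p = 4.52e-18). Factor D, CFD, is not a regulator but part of the alternative pathway. It was measured by 1 probe and called in no tissue, with 5.63 ± 0.37 in liver and 5.46 ± 0.50 in bone marrow (limma adjusted p = 0.443).

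Some members were too dim or too uneven between probes to be placed. C8A was called highest in liver at a mean of 3.65, but no liver array was above background, and MASP1, at 2.58 in liver, was above background on 1 of 8 liver arrays. SERPINA1, alpha-1-antitrypsin, is known as an abundant liver protein, yet its 2 probes were above background on 0 of 8 liver arrays and it was called highest in cerebellum, at 4.66 ± 0.24 (SD, n = 8) against 3.58 ± 0.26 in liver. SERPINH1, the collagen chaperone, lay between 2.41 in a cerebral cortex sample and 4.78 in a spleen sample over the 56 samples and was called in no tissue. SERPINE2, protease nexin-1, has a pair of probes of which one stayed between means of 2.09 and 2.40 in all 9 tissues, while the other ran from 7.12 in kidney to 12.57 in ovary, so that the gene average shows about 1 log2 unit for every 2 of the responsive probe.

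Kidney was the second tissue for 13 of the 31 liver-called members, against 7 for spleen and 5 for bone marrow. The second tissue was not counted over all liver-called genes. Of the 13, C6 was above background on 0, F10 and SERPIND1 on 1 and FGG on 2 of 8 kidney arrays. C8A and MASP1 were above background on 0 bone marrow arrays. For these members the second place is not set. SERPINF2, the main inhibitor of plasmin, was at 14.25 ± 0.17 (SD, n = 8) in liver and 11.92 ± 1.1 in kidney, only 5.01-fold lower (limma adjusted p = 3.72e-13). F2, prothrombin, was at 15.37 ± 0.12 in liver, with 2 saturated arrays, and 10.98 ± 0.86 in kidney, and at 5.77 ± 0.81 in spleen. SERPINC1, F9 and C5 also had kidney as their second tissue, at means of 7.74, 6.44 and 6.65, and all 8 kidney samples of each were above background. The mean level of the 7 hepatocyte markers per sample lay between 4.12 and 4.61 in kidney up to 4 months and between 10.01 and 10.73 in liver, and ALB was above background in 1 and APOA2 and TAT in 0 of 8 kidney samples, while APOA1 and APOC3 were above background in all 8 and APOC3 reached 9.47. Their part in the kidney levels was not tested.

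The 5 members highest in spleen were C1QB, C1QC, F8, SERPINB9 and SERPINE3. The chains of C1q lie next to each other in the pig gene order and were all highest in spleen. C1QB had a lowest, median and highest level of 14.54, 15.93 and 15.99 in spleen, with 6 of 8 arrays saturated, and 12.86, 13.32 and 14.22 in bone marrow (log2 2.14, SE 0.20, limma adjusted p = 3.55e-12). C1QC was at 8.55 ± 0.87 (SD, n = 8) in spleen and 7.25 ± 0.41 in bone marrow, and the accession-listed C1QA at 12.78 ± 0.89 in spleen and 10.18 ± 0.53 in liver. F8, the cofactor whose loss causes hemophilia A, was also highest in spleen, at 9.49 ± 0.72 against 8.63 ± 0.29 in liver (1.82-fold, limma adjusted p = 4.16e-05). SERPINB9, an inhibitor of granzyme B, was 2.18-fold higher in spleen than in liver, and its accession-listed probes gave 4.03-fold over bone marrow. SERPINE3 was dim, at 3.36 ± 0.65 in spleen, with 2 of 8 samples above background, and 2.78 ± 0.53 in liver, with 0 of 8 (limma adjusted p = 0.00511).

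Bone marrow was highest for F13A1, CFP, SERPINB10 and SERPINB8. F13A1, the catalytic subunit of factor XIII, which blood cells make, was at 12.45 ± 0.28 (SD, n = 8) in bone marrow and 9.91 ± 0.95 in spleen, a 5.83-fold difference (limma adjusted p = 5.72e-09). The other subunit, the accession-listed F13B, is a plasma protein and was at 11.38 ± 0.33 in liver, at least 300-fold above bone marrow, where no sample was above background. Properdin, CFP, was 1.57-fold higher in bone marrow than in spleen, at 13.58 ± 0.55 against 12.92 ± 0.48 (limma adjusted p = 0.00282), and this call was lost without the 2-month samples, with a margin of 0.43 log2 units in place of 0.65. SERPINB10 was at 5.04 in the 2-month male and between 7.12 and 7.88 in the other 7 bone marrow samples. The same 2-month male stood apart in F5, at 6.08 against 8.52 to 9.51 in the other 7. Dim members were highest in kidney and hypothalamus. SERPINB3 was at 4.48 ± 0.32 in kidney and 4.09 ± 0.51 in liver (limma adjusted p = 0.0258), and SERPINB12 at 3.99 ± 0.59 in hypothalamus, where 4 of 8 samples were above background, and 3.17 ± 0.32 in cerebral cortex (limma adjusted p = 0.000359). The call on SERPINB3 was lost without the 1-week samples, at a margin of 0.26.

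The accession-listed C4BPA and the member C4BPB, which encode the chains of C4-binding protein and lie side by side in the pig gene order, had different tissue patterns. C4BPB was 26.9-fold higher in liver than in spleen, at 12.44 ± 0.34 against 7.69 ± 1.15 (SD, n = 8, limma adjusted p = 1.58e-19). C4BPA was highest in spleen, at 11.98 ± 1.08, with 11.02 ± 0.37 in liver (limma adjusted p = 0.0228) and 10.66 ± 0.88 in bone marrow. The spleen and liver samples of C4BPA overlapped, because the 1-week spleens were at 10.30 and 10.38.

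In brain, 2 members stood out in cerebral cortex. F5, the cofactor of factor X, lay at 9.02, 9.67 and 9.96 (lowest, median and highest of 8 samples) in cerebral cortex, second only to liver at 10.94, 11.19 and 11.28. It was between 3.28 and 5.32 in cerebellum and between 3.32 and 5.74 in hypothalamus, so that cortex was 32.7-fold above cerebellum (log2 5.03, SE 0.33, limma adjusted p = 6.18e-18) and 35.3-fold above hypothalamus (limma adjusted p = 1.1e-17). Both probes gave this order, with cortex means of 9.96 and 9.19 and cerebellum means of 4.93 and 4.16. SERPINB7, a clade B serpin known from skin, was highest in cortex, at 5.22 and 5.70 at 1 week and 6.32 to 7.74 at the later ages up to 4 months, against 5.69 ± 1.01 in liver (2.12-fold, limma adjusted p = 0.00282). Without the 4-month samples this margin was 0.51 log2 units in place of 1.08 and without the 2-month samples 0.79, and the call was lost in both. In cerebellum and hypothalamus SERPINB7 was above background in no sample, and cortex was at least 12.9-fold and at least 13.7-fold higher. The accession-listed SERPINI1, neuroserpin, was at 9.92 ± 0.46 in cortex and 9.61 ± 0.67 in hypothalamus (limma adjusted p = 0.355) and at 6.38 ± 0.74 in liver.

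Changes with age were tested within each tissue as 4 samples at 2 and 4 months against 4 at 1 and 4 weeks. In spleen 3 members were higher and 2 lower after 4 weeks, against 1.54% and 1.57% of all genes, and in kidney 2 were higher and 3 lower, against 3.73% and 4.74%. In cerebral cortex 2 were higher and 0 lower, against 0.965% and 0.809%. No member was called in liver, bone marrow, cerebellum or hypothalamus, where 1.8%, 0.674%, 2.3% and 0% of all genes changed in either direction. The numbers of members at an unadjusted p under 0.05 in these 4 tissues were 8, 12, 8 and 7 of 56, against 17.6%, 14.5%, 20.1% and 9.55% of all genes. The median change over the 56 members lay between -0.07 in liver and 0.09 in kidney, beside -0.01 to 0.03 over all genes in the 7 tissues.

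C4BPB changed most among the members in spleen. The beta chain of C4-binding protein was at 6.43 and 6.06 at 1 week (female and male), 7.06 and 7.17 at 4 weeks, 9.15 and 8.41 at 2 months, and 8.77 and 8.44 at 4 months. All 4 older samples were above all 4 younger ones, and the level rose 4.04-fold (log2 2.01, SE 0.28, limma adjusted p = 0.0125). The 2-year male was back at 6.55, and with it in the older group the call was lost at log2 1.58, as it was without the 4-month female at 1.99. The change in spleen was 2.23 log2 units above the mean change of the other 6 tissues (SE 0.28, limma adjusted p = 2.84e-07). The accession-listed C4BPA was already high in spleen at 4 weeks, at 12.80 and 12.31 after 10.30 and 10.38 at 1 week, and was not called there. In bone marrow C4BPA rose from 9.21 to 10.45 in the younger samples to 11.07 to 11.66 in the older ones (log2 1.48, SE 0.25, limma adjusted p = 0.0402), a call that was lost without any 1 of 6 of the 8 samples, at log2 1.25 to 1.66.

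SERPINB9 also rose in spleen. It was between 4.87 and 5.33 in the 4 younger samples and between 5.96 and 6.35 in the 4 older ones (log2 1.1, SE 0.16, limma adjusted p = 0.0139), and its accession-listed probes went from 5.79 to 7.31 to 7.51 to 8.00. The call on SERPINB9 was lost without either 2-month sample, at log2 1.05 and 1.06. SERPINC1 was called in spleen as well, from a mean of 3.16 to 4.17, but 0 of 4 younger and 2 of 4 older samples were above background, and the change was at least 1.97-fold (limma adjusted p = 0.0111).

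**Figure D2:**
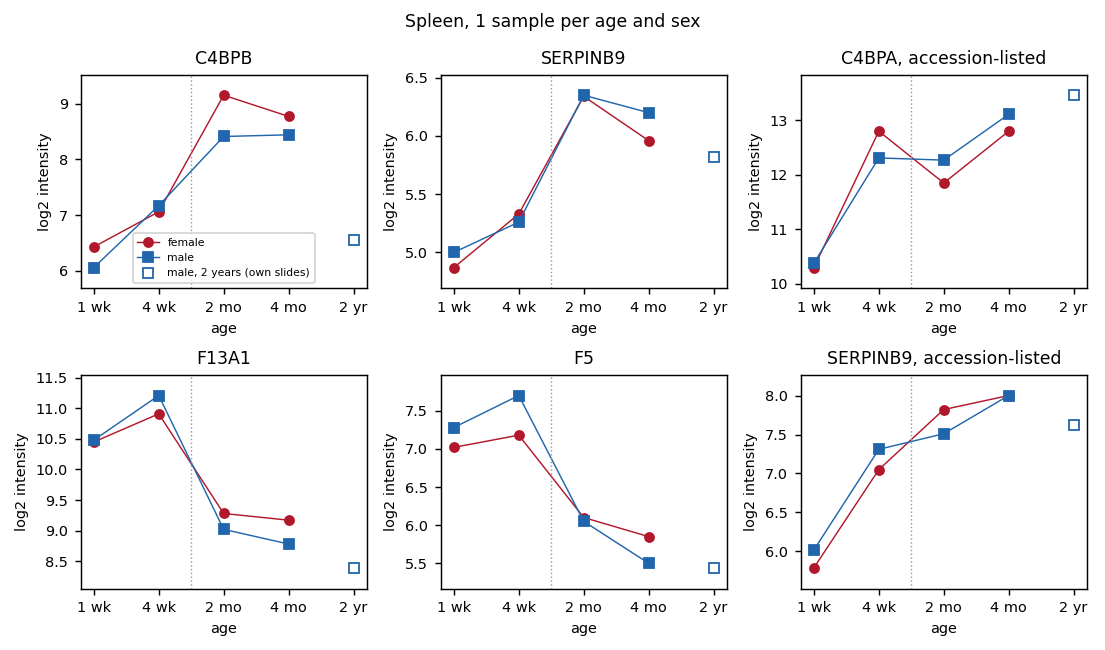
Log2 intensity (vertical axis, own scale in each panel) against age in spleen for C4BPB, SERPINB9, F13A1 and F5 and the accession-listed C4BPA and SERPINB9, with 1 point per sample, filled circles for females, filled squares for males and an open square for the 2-year male. Across the dotted line between 4 weeks and 2 months C4BPB and SERPINB9 go up and F13A1 and F5 go down in both sexes.

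The members that fell in spleen were F13A1 and F5. F13A1 was between 10.45 and 11.21 in the younger spleens and between 8.78 and 9.28 in the older ones (log2 -1.70, SE 0.20, limma adjusted p = 0.00839), without overlap. F5 went from 7.02 to 7.70 down to 5.50 to 6.10 (log2 -1.42, SE 0.19, limma adjusted p = 0.0118), and without the 4-month female the call was lost at log2 -1.41.

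Blood cell markers moved in the same spleen samples. Over all genes 1.54% rose and 1.57% fell in spleen after 4 weeks. Of 7 measured megakaryocyte and platelet markers 4 fell, and the mean level of the 7 was between 6.13 and 6.70 in the younger samples and between 3.86 and 4.01 in the older ones. PF4, platelet factor 4, went from 9.25 to 10.40 down to 3.45 to 4.29. Of 8 erythroid markers 2 fell, with sample means of 9.48 to 12.33 in the younger and 8.26 to 8.83 in the older spleens. Of 8 B and T cell markers 2 rose, with sample means of 7.51 to 8.56 and 9.00 to 9.17. Among the neutrophil markers S100A8 fell from 7.86 to 10.21 down to 5.09 to 6.11 (limma adjusted p = 0.0106). AZU1 went from 6.87 to 12.92 down to 4.64 to 5.11 but was not called (limma adjusted p = 0.0532), nor was any other neutrophil marker. The part of these cells in the changes of F13A1, F5, C4BPB and SERPINB9 was not tested, and in bulk tissue fewer cells of a type and less RNA per cell cannot be told apart. The mean of the hepatocyte markers stayed between 4.34 and 4.60 in all 8 spleens. APOA1, at 6.60 to 8.37, and APOC3, at 6.22 to 7.60, were above background in all 8.

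In kidney the called members changed by less than 2-fold. PROC, protein C, the vitamin K-dependent anticoagulant protease, was above background in 0 of 4 younger and 4 of 4 older kidneys, at 3.15 to 3.83 and 4.15 to 4.87, at least 1.77-fold higher (limma adjusted p = 0.0381). SERPINA5, the protein C inhibitor, went from 4.74 to 5.00 up to 5.23 to 5.50 (log2 0.53, SE 0.13, limma adjusted p = 0.0338). CFB fell from 7.08 to 7.73 to 6.05 to 6.79 (log2 -0.79, SE 0.20, limma adjusted p = 0.0411). F3, tissue factor, which starts the extrinsic pathway, fell from 5.31 to 5.44 to 4.33 to 5.00 (log2 -0.68, SE 0.16, limma adjusted p = 0.0312), and SERPINB7 from 4.72 to 5.20 to 3.70 to 4.43 (log2 -0.85, SE 0.19, limma adjusted p = 0.0273). In each of the 5 the older samples lay on one side of the younger ones. These calls were near the threshold, and the count of 5 became 0 without the 1-week female, the 1-week male or the 4-month male, 1 without the 2-month male or the 4-week male, 2 without the 2-month female and 13 without the 4-month female. The share of all genes called in kidney moved as well, from 8.46% to 1.57% without the 1-week female and to 19% without the 4-month female.

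SERPINF2 had a larger change in kidney that was not called within the tissue. Its level was 10.57 and 10.34 at 1 week (female and male), 11.64 and 12.02 at 4 weeks, 12.20 and 13.21 at 2 months and 11.95 and 13.46 at 4 months, with 13.18 in the 2-year male. The 4-month female was just below the 4-week male, so the groups overlapped. Set against the mean change of the other 6 tissues, the change in kidney was 1.53 log2 units higher (SE 0.25, limma adjusted p = 0.000178). SERPINC1 in kidney was at 6.51 and 6.27 at 1 week, 7.74 and 8.32 at 4 weeks, 6.38 and 8.45 at 2 months and 8.76 and 9.47 at 4 months, where the 2-month female fell back to the 1-week level. The kidney changes of SERPINF2, PROC, SERPINA4, SERPINA5 and FGB were above those of the other tissues and those of CFI and SERPINB9 below, 7 members in all against 5.7% of all genes. The calls on SERPINF2 and SERPINB9 held without any 1 age and sex, and each of the other 5 was lost in at least 1 such case. SERPINB9 was between 4.59 and 4.81 in the younger kidneys and between 4.12 and 4.47 in the older ones, 0.68 log2 units below the other tissues (difference -0.68, SE 0.15, limma adjusted p = 0.0042).

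**Figure D3:**
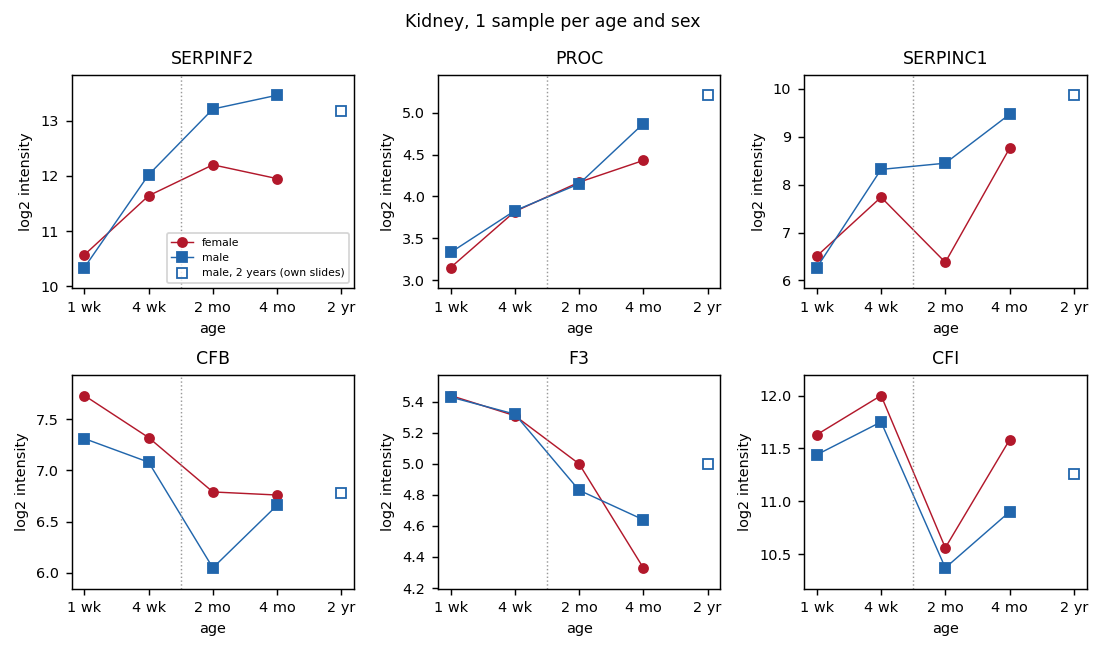
Log2 intensity (vertical axis, own scale in each panel) against age in kidney for SERPINF2, PROC, SERPINC1, CFB, F3 and CFI, with 1 point per sample, filled circles for females, filled squares for males and an open square for the 2-year male. SERPINF2 climbs from 10.34 and 10.57 at 1 week to 11.95 and 13.46 at 4 months, and CFB and F3 are lower on the right of the dotted line than on its left.

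In liver the levels of the 31 liver-called members were mostly flat. Their changes after 4 weeks lay between -0.49 and 0.84 log2 units with a median of -0.05, and 30 of the 31 changed by less than 0.5. The share of all genes that changed by less than 0.5 was not counted. SERPINC1, SERPING1, CFB and F2 had 7, 3, 2 and 2 saturated liver arrays, which limits the change that could be seen in them. C6 was higher at 4 months, at 5.93 to 6.89 in the 6 samples up to 2 months and 8.02 and 7.59 at 4 months, with 7.68 in the 2-year male. The accession-listed C9 did the same, at 5.06 to 6.28 up to 2 months, 7.50 and 7.47 at 4 months and 7.12 at 2 years. The split into 2 age groups does not test a difference that begins at 4 months, and neither gene was called. By its symbol-listed probes C7 was higher in the male than in the female liver at 4 weeks, 2 months and 4 months (8.74 against 7.99, 9.96 against 7.45 and 9.10 against 8.08), while at 1 week the female was higher, at 7.35 against 7.15. The accession-listed probes of C7 varied less in liver, at 9.06 ± 0.45 against 8.23 ± 0.97 for the symbol-listed ones. Over all tissues tested the male minus female difference was -0.12 by the accession-listed and 0.21 by the symbol-listed probes.

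F13A1 and SERPINB7 had the lowest changes of the members in liver. F13A1 was at 8.32 and 8.76 at 1 week, 5.73 in the female and 8.28 in the male at 4 weeks, and 5.47 to 6.03 at the later ages up to 4 months (log2 -2.05, SE 0.56, limma adjusted p = 0.0938). SERPINB7 was at 6.06 to 6.98 in the younger livers and 4.14 to 5.66 in the older ones, without overlap (log2 -1.57, SE 0.35, limma adjusted p = 0.0594). Both differed from the other 6 tissues, by -1.58 log2 units for F13A1 (SE 0.37, limma adjusted p = 0.00617) and -1.62 for SERPINB7 (SE 0.40, limma adjusted p = 0.00952), as did C1QB by -1.0 (limma adjusted p = 0.02). Without the 1-week male the F13A1 call was lost at -1.27, and without the 1-week or the 4-month female the SERPINB7 call at -1.47 and -1.38. The C1QB call was lost without the 1-week female, the 1-week male or the 4-month male, at -0.88, -0.93 and -0.89. These were the 3 members whose change in liver differed from the mean of the other 6 tissues, against 6.3% of all genes. F13A1 also fell in spleen and SERPINB7 in kidney. The erythroid markers had sample means of 9.89 and 9.87 in the 1-week livers and 7.25 to 8.14 in the later ones up to 4 months, and their part in the F13A1 levels was not tested.

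Over all tissues, the test of a change that differed from the other 6 called 7 members in spleen (against 13.4% of all genes), 2 in bone marrow (4.64%) and 0 in cerebellum (0.653%), hypothalamus (0.181%) and cerebral cortex (0.0422%). Beside those named above, the spleen calls were CFP, F12 and SERPINE3 with lower changes than elsewhere. The bone marrow calls were C3 and F3. C3 went from 4.95 to 5.32 in the younger marrow to 4.12 to 4.88 in the older, 1.12 log2 units below the other tissues (difference -1.12, SE 0.19, limma adjusted p = 0.000215), and its accession-listed probes gave -1.29. F3 went from a mean of 3.27 to 4.02, but 0 of 4 younger and 1 of 4 older marrow samples were above background.

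In cerebral cortex C3 and F8 were higher after 4 weeks. C3 was at 5.57 and 5.43 at 1 week, 6.11 and 5.99 at 4 weeks and 6.43 to 6.80 later (log2 0.79, SE 0.16, limma adjusted p = 0.0456), and the accession-listed probes gave 0.92 (SE 0.19, limma adjusted p = 0.0441). F8 went from 6.17 to 6.35 up to 6.72 to 6.88 (log2 0.53, SE 0.09, limma adjusted p = 0.0316). The accession-listed C1QA rose from 6.70 to 7.17 up to 7.50 to 8.22 (log2 0.85, SE 0.17, limma adjusted p = 0.0414). Neither C3 nor F8 changed in cortex by an amount that differed from the other tissues (limma adjusted p = 0.356 and 0.905). The count of 2 became 0 when any one cortex sample other than the 4-month female was left out.

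No member differed between the sexes over the 28 pairs of the same tissue and age, against 0.266% of all genes, and 4 of 56 members had an unadjusted p under 0.05, against 8.59% of all genes. The largest mean difference among the members was 0.38 log2 units in size, and the smallest limma adjusted p was 0.345.

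Testis and ovary had 1 sample per age, so steps of at least 4-fold between successive ages are given without a test. In testis 7 members passed such a step between 4 weeks and 2 months, against 8.58% of all genes, and 0 members between 1 and 4 weeks and between 2 and 4 months, against 1.59% and 0.333%. F12 was at 5.93, 5.22, 9.84, 8.66 and 9.60 at the 5 ages, and its accession-listed probes at 4.78, 4.29, 9.99, 8.75 and 9.79. C4BPB went from 3.90 to 6.76, F13A1 from 6.50 to 8.64 and SERPINB4 from 1.15, below its limit, to 3.86. SERPING1 went down from 12.30 to 10.19, C1QB from 11.81 to 9.78 and SERPINF1, pigment epithelium-derived factor, from 7.38 to 5.37. In the same step the mean of 3 measured spermatid markers went from 4.26 to 15.11 and that of the macrophage markers from 5.59 to 5.05. The macrophage markers did not move together. Between the 2 younger and the 2 older testis samples CSF1R changed by -2.41 log2 units, AIF1 by -2.14, TYROBP by -0.51, CD68 by -0.49 and MARCO by 1.02. Their part in the C1QB levels was not tested.

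**Figure D4:**
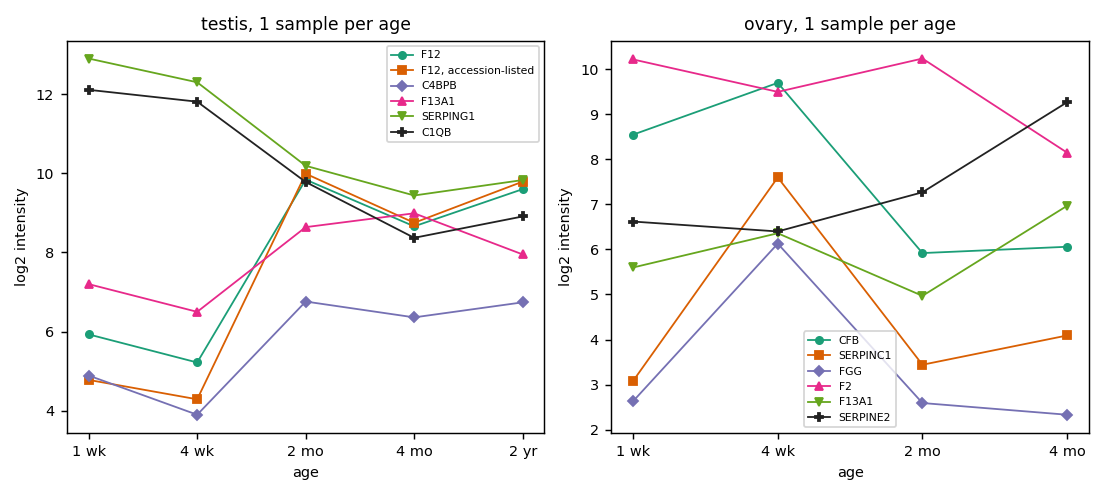
Log2 intensity against age in testis (left, 5 ages) and ovary (right, 4 ages), with 1 sample per age and no error; the height of one gene's line cannot be compared with another's. In testis both probe sets of F12 go up and SERPING1 and C1QB go down between 4 weeks and 2 months, and in ovary SERPINC1 and FGG peak at 4 weeks.

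In ovary 2 members passed a 4-fold step between 1 and 4 weeks, 3 between 4 weeks and 2 months and 4 between 2 and 4 months, against 0.438%, 1.14% and 2.55% of all genes. SERPINC1 was at 3.08, 7.60, 3.44 and 4.09 and FGG at 2.63, 6.13, 2.59 and 2.33 at the 4 ages, both with a peak in the single 4-week sample, and the accession-listed SERPINA11 at 2.04, 4.60, 2.52 and 3.92. Of the hepatocyte markers APOC3 was at 5.37, 7.96, 5.57 and 6.33 and APOA2 at 3.13, 4.41, 2.96 and 3.20, so both were highest in that sample, while ALB stayed between 3.44 and 3.63. Their part in the SERPINC1 and FGG levels was not tested. CFB was at 8.55 and 9.70 at 1 and 4 weeks and at 5.92 and 6.06 at 2 and 4 months, a 13.8-fold step down. From 2 to 4 months F2 went down from 10.24 to 8.15, C4BPB from 5.61 to 3.54 and SERPINE3 from 5.19 to 2.94, and F13A1 went up from 4.97 to 6.97. SERPINE2 was at 6.62, 6.40, 7.27 and 9.27, with a last step of 3.99-fold. This average joins the flat probe, with an ovary mean of 2.21, and the responsive one, with 12.57. It therefore shows a smaller step than the responsive probe.

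The 2-year male was set against the 4-month male in 8 tissues, also without a test. In bone marrow 7 members differed at least 4-fold, against 5.83% of all genes, in spleen 2 against 1.05% and in hypothalamus 1 against 0.481%. None did in liver, kidney, cerebellum, cerebral cortex and testis, against 0.767%, 0.329%, 0.274%, 0.244% and 0.514%. In bone marrow CFP was at 8.00 after 12.47 to 14.37 in the 8 younger samples, and F13A1 at 8.29 after 12.15 to 12.88. F12, F5 and SERPINB10 were lower as well, and F3, at 7.50 after 2.80 to 4.50, and SERPINB7, at 7.19 after 3.40 to 5.47, were higher. The mean of 8 erythroid markers in this sample was 6.12 after 11.67 to 12.53, that of 6 neutrophil markers 7.09 after 11.48 to 12.39 and that of 7 platelet markers 3.70 after 6.79 to 8.21, while the fibroblast markers were at 9.55 after 6.65 to 9.35. In spleen the 2-year male had CFP at 14.83 after 12.51 to 13.96 and F12 at 10.73 after 6.85 to 9.82. CFB in hypothalamus was at 7.08 after 9.37 in the 4-month male, within the range of 6.78 to 9.37 up to 4 months. Age, housing and slide cannot be told apart in these values.

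F12 depends on which probes measure it. The symbol-listed and accession-listed probes were at 13.27 ± 0.20 and 13.65 ± 0.20 (SD, n = 8) in liver. In bone marrow they stood at 9.40 ± 0.70 and 5.58 ± 0.48. In spleen the symbol-listed probes were at 8.89 and 9.82 at 1 week, 6.85 to 7.44 from 4 weeks to 4 months and 10.73 at 2 years, and the accession-listed ones at 5.38 and 5.06, 5.88 to 7.13 and 5.43, the opposite order. The same spleens had CFP, measured by other probes, at 13.15 and 13.96 at 1 week, 12.51 to 13.01 from 4 weeks to 4 months and 14.83 at 2 years, the order of the symbol-listed probes of F12. The names of both symbol-listed probes of F12 carry the tag Xhyb, which the sources used here do not explain and which 9 members have on all their probes (among them C3, C4BPB, C5 and F8). Over the 72 samples the symbol-listed and accession-listed levels correlated at r = 0.997 for C5, 0.994 for C3, 0.934 for SERPINB9, 0.896 for F12 and 0.817 for C7. These points share tissues and arrays.

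**Figure D5:**
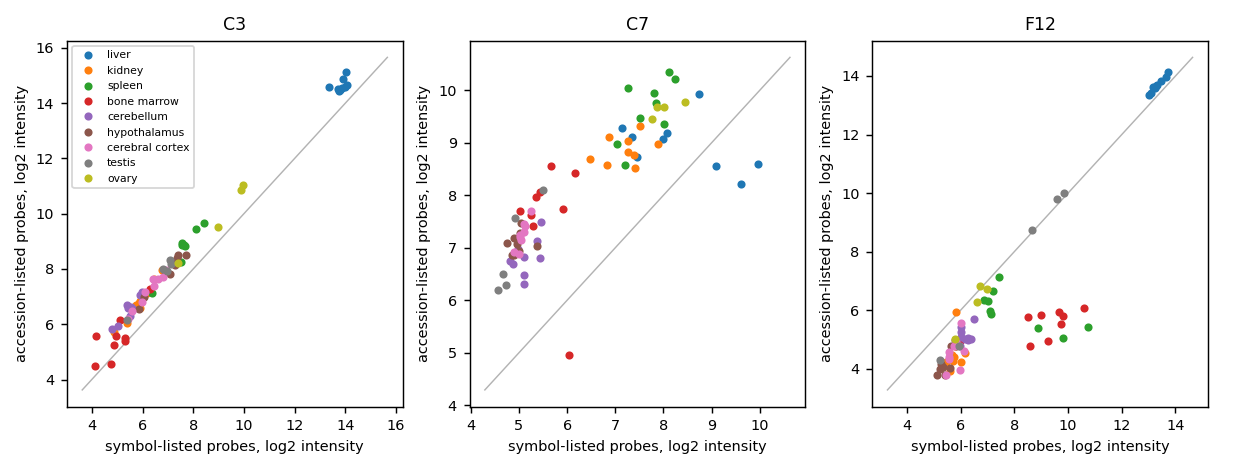
Log2 intensity of the accession-listed probes (vertical axis) against that of the symbol-listed probes (horizontal axis) for C3, C7 and F12, with 1 point per sample (72), colored by tissue, and a grey line of equal values. C3 runs parallel to the line, while for F12 the bone marrow samples and the spleen samples of 1 week and 2 years lie far to the right of the others.

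Other genes of the same systems were counted from 3 fixed lists. Of 10 measured acute phase genes all 10 were highest in liver, and of 19 measured coagulation and fibrinolysis genes 9 were highest in liver, 3 in spleen, 3 in bone marrow and 1, KNG1 (kininogen), in kidney. Among all genes the shares were 9.18% in liver, 5.66% in spleen, 8.02% in bone marrow and 6.21% in kidney. VKORC1, among the 9 in liver, was above background in 0 of 8 liver samples, and KNG1 in 5 of 8 kidney samples. Of 16 measured complement receptors, lectins and membrane regulators 2 were highest in liver, 3 in spleen (CR1, CR2 and ITGB2) and 1, C5AR1, the receptor of C5a, in bone marrow. After 4 weeks 2 of these 16 rose in spleen and 0 fell, against 1.54% and 1.57% of all genes. CR2, the C3d receptor of B cells, went from 6.43 to 7.48 up to 8.16 to 8.40 (limma adjusted p = 0.0362), and FCN3, a ficolin that starts the lectin pathway, from 9.11 to 9.66 up to 10.47 to 10.91 (limma adjusted p = 0.00874). In kidney, where 3.73% of all genes rose and 4.74% fell, 3 of the 19 coagulation genes rose and 0 fell, namely TFPI2, KLKB1 (plasma prekallikrein) and HRG, with changes of 1.21, 0.70 and 1.14 log2 units. Of the other lists, HPX (hemopexin) rose there by 0.84, while ITIH1 fell by 1.88 and COLEC12, a membrane collectin, fell by 1.19. In spleen F2RL3, a thrombin receptor, fell from 4.24 to 5.80 to 2.07 to 3.48 (limma adjusted p = 0.0161), with 3 of the 8 samples above background. HP (haptoglobin) in spleen and TFPI in cerebral cortex were called lower, at limma adjusted p = 0.0371 and 0.0305, but neither was above background in any of the 8 samples. No gene of the 3 lists was called in liver, bone marrow, cerebellum or hypothalamus.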

How the data were processed

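Total RNA of each sample was labelled with 1 dye and hybridized to a custom Agilent array. The authors deposited scanner files with probe intensity values (Agilent Feature Extraction 11.5.1.1, per the submitters' processing notes) and a table of their log2 values. Here the median spot intensity was background-corrected by normexp (saddle, offset 0), quantile-normalized over gene and negative control spots, log2-transformed and averaged over spots, then probes, of a gene. The genome build of the probe design is not given in the sources used here. The 8 arrays of the 2-year male kidney were averaged to 1 sample.

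Tests used limma 3.58.1 in R 4.3.3 over 23722 genes, with Benjamini-Hochberg adjustment and a threshold of 0.05, and were tested on simulated data. Age tests were fitted within each tissue. Tissue, sex and difference tests used the 56 samples up to 4 months with age and sex as a block where stated. The number of arrays limits the precision. The members and lists were chosen with earlier results of these data known. Genes were named by the largest tissue margins, the largest called changes, the smallest p of a differing change, steps of at least 4-fold, and a list of key genes. Other genes were named after their values were seen. Some genes of these families are not reported here. Alternatives covered background offset, scaling, probe summary, the authors' table, a filter on dim genes, blocks, slide and each sample left out.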

Additional observations from a re-analysis of the deposited data

Results flagged for a closer look

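Of 80 groups of 4 or 8 samples, 5 held a sample far from the others, where chance gives about 1 in 20. FGG in the 4-month female liver was at 14.72 (others 15.18 to 15.55) and F5 in the 2-month male liver at 10.94 (others 11.13 to 11.28). In bone marrow SERPINB10 in the 2-month male was at 5.04 and SERPINB8 in the 4-month female at 5.51. The accession-listed SERPINA3-2 was at 5.28 in the 4-week female kidney.

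The change after 4 weeks differed between a tissue and the mean of the other 6 by limma for 19 members and for several accession-listed genes, given here as log2 differences. In liver they were -1.0 for C1QB, -1.58 for F13A1, -1.62 for SERPINB7 and -0.70 for the accession-listed F13B. In kidney they were -0.77 for CFI, 0.94 for FGB, 0.81 for PROC, 1.35 for SERPINA4, 0.52 for SERPINA5, -0.68 for SERPINB9, 1.53 for SERPINF2 and 1.36 for the accession-listed SERPINA3-2. In spleen they were 2.23 for C4BPB, -0.72 for CFP, -1.24 for F12, -1.17 for F13A1, -1.26 for F5, 1.04 for SERPINB9 and -0.85 for SERPINE3. The accession-listed genes in spleen gave -1.06 for C5, 1.13 for SERPINB9 and 1.26 for MASP2. In bone marrow they were -1.12 for C3, 1.1 for F3, and 1.00 for C1S and -1.29 for C3 by accession-listed probes.

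A renal pelvis sample of the 2-year male entered no comparison. C1QB was at 12.15 there and 10.11 in the kidney of the same age and sex, CFB at 9.38 and 6.78, and F13A1 at 8.32 and 5.79. In the other direction SERPINC1 was at 6.70 in the pelvis and 9.87 in kidney and F2 at 8.12 and 11.18, while FGG and PROC, at 4.65 and 5.21 in kidney, were not above background in the pelvis. The accession-listed C1QA was at 8.20 in the pelvis.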

How the results depend on the processing

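No call on a named member changed sign under any alternative. Of 44 calls of a highest tissue 36 were unchanged throughout, of 27 differing changes 9, and of 18 age calls 1 (F13A1 in spleen). Every other age call weakened under at least 1 alternative, in spleen and bone marrow as well as in kidney and cerebral cortex. The age calls in kidney and cerebral cortex lie near the threshold. With sex as a replicate block, the age count in cerebral cortex went from 2 to 1 and no other tissue's count changed. Over all genes, the mean deviation of a sex from its age group correlated between younger and older samples at -0.03 to 0.21, by tissue.

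Age counts in liver (0) became 1 with processed signals, 1 with the filter, 2 in 1 shared fit and 3 with slide added, which was chosen after seeing the data. In kidney (5) a 2-fold minimum gave 0 and the shared fit 9. In spleen (5) the 2-year male gave 3 and the shared fit 8. In bone marrow (0) the shared fit gave 4, with slide 2, and in cerebellum (0) an offset of 50 gave 1. In cerebral cortex (2) processed signals, median scaling and the authors' table each gave 1, and a 2-fold minimum, the shared fit and slide each 0. Without single samples the ranges were 0 to 1 in liver, 0 to 13 in kidney, 3 to 6 in spleen, 0 to 1 in bone marrow and cerebellum and 0 to 1 in cerebral cortex.

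Counts of highest tissue with a 2-fold minimum were 3 in spleen, 2 in bone marrow and 0 in kidney, cerebellum and hypothalamus, median scaling gave 0 in kidney, and leaving out an age gave 0 to 1 in kidney and cerebral cortex. Differing changes became 6 in liver with offset 50, 3 in kidney and 4 in spleen with slide, 6 and 4 in bone marrow with processed signals and the authors' table, 1 in hypothalamus with that table and 1 in cerebral cortex with offset 50. Without single samples they ranged from 1 to 5 in liver, 3 to 9 in kidney, 2 to 8 in spleen, 2 to 5 in bone marrow and 0 to 1 in cerebellum and hypothalamus. Steps past the limit became 34 in testis, 21 in ovary and 37 at 2 years at 2-fold, 2, 3 and 4 with offset 50, and 4 in testis with median scaling. The causes were not tested. Levels near the detection limit and saturated spots are bounds.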
